A study of Homo sapiens with 2 samples.

Results

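A set of 10 genes of the Notch pathway were compared between PC3 cells and PC3CR cells, namely the receptors NOTCH1, NOTCH2 and NOTCH3, the ligands JAG1, JAG2 and DLL1, the nuclear factors RBPJ and MAML2, and the target genes HES1 and HEY1. They were chosen by name, with earlier results of these data known, and all 10 of the 10 listed were among the 19775 genes measured. PC3 is a human prostate cancer cell line that grows without androgen. PC3CR is a subline of it that had been passaged for 18 months in medium with cabazitaxel (CBZ), a taxane that stabilises microtubules, and that was profiled after 3 months away from the drug. Both lines were kept in the same serum-containing medium, and total RNA of each was isolated and profiled on 1 array. Every difference below therefore compares 2 arrays and has no replicate check. The values were log2 expression values made by the robust multichip average (RMA), a method that corrects background, equalises the arrays and summarises the probes of a probe set. Where a gene had several probe sets, the one with the highest mean stood for it, and the difference was PC3CR minus PC3, so that 1 on this scale is 2-fold. PC3CR comes from a single parental line, and whether it is a clone or a mixed population was not given in the sources used here.

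Notch receptors are transmembrane proteins that are activated by Jagged or Delta ligands on a neighbouring cell. Binding lets a metalloprotease and then gamma-secretase cut the receptor, and the freed intracellular part enters the nucleus, where it joins the DNA-binding protein RBPJ and a Mastermind coactivator to switch on genes of the HES and HEY repressor families. In the prostate this pathway is known for its part in the balance between basal and luminal epithelial cells. Several target genes are known to carry RBPJ sites close to their start, so the promoters of genes that the comparison turns on are shown first.

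The promoter windows below were taken from RefSeq on GRCh38.p14 and run from 250 bases before to 50 bases after the start of transcription, 5′ to 3′ on the strand of the gene. HES1 and HES4 are shown because both were lower in PC3CR, and HES5 and HEY2 as related targets not lower on their brightest probe set. HES5 was under the lower quartile of all genes, with little room to fall, and a second HEY2 probe set gave -0.16. RBPJ is shown as the DNA-binding partner, and JAG1 as a lowered ligand. Capitals mark the RBPJ core letters that were searched, GTGGGAA or GTGAGAA and, for the opposite strand, TTCCCAC or TTCTCAC. Matches were allowed to overlap, and each string was counted separately.
HES1, chr3:194135898-194136197, plus strand: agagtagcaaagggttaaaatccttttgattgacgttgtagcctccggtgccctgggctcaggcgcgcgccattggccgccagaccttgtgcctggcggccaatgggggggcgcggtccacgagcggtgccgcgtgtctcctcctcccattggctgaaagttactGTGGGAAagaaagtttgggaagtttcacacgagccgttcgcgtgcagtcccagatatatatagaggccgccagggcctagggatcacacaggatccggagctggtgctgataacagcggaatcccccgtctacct
HES4, chr1:1000048-1000347, minus strand: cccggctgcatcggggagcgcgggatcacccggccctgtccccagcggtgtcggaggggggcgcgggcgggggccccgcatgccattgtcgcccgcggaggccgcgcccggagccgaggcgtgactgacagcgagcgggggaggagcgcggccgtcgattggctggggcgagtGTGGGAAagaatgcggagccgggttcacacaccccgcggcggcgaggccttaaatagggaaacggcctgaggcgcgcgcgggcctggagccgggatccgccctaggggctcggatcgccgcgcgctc
HES5, chr1:2530214-2530513, minus strand: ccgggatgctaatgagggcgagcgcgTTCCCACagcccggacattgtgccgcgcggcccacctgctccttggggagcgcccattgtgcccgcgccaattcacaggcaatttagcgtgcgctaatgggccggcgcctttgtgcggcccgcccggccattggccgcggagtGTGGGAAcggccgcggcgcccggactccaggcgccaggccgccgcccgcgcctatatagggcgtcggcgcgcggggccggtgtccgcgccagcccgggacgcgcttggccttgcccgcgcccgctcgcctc
HEY2, chr6:125749382-125749681, plus strand: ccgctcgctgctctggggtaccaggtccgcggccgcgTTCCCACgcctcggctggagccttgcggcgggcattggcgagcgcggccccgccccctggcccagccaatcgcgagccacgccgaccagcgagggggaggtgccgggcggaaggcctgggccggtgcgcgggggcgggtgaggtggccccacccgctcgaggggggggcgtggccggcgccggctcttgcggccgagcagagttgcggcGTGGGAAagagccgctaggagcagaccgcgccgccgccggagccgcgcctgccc
RBPJ, chr4:26319496-26319795, plus strand: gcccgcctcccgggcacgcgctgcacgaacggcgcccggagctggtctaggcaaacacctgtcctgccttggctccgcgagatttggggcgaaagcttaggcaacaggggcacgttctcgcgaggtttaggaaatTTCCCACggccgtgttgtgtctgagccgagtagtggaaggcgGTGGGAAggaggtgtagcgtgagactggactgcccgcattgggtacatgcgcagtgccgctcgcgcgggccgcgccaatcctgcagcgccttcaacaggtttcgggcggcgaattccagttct
JAG1, chr20:10673950-10674249, minus strand: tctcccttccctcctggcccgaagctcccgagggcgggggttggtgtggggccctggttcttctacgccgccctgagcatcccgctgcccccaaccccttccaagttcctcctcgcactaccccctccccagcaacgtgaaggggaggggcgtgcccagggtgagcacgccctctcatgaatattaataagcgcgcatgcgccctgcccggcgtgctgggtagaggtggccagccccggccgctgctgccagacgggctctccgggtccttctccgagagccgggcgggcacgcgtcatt
The letters GTGGGAA stood 85 bases before the start in HES1, 77 bases before it in HES4 and 81 bases before it in HES5. HES5 held a second match 224 bases before the start, and HEY2 held matches 213 and 4 bases before it. RBPJ had 5 annotated windows, of which 1 held 2 matches, 115 and 73 bases before its start. Windows were searched for 8 of the 10 Notch genes, and 2 of these 8 held a match, HES1 and RBPJ. DLL1 and HEY1 were not searched, so nothing can be said about matches in their promoters. Of the 12 other target genes, 9 were searched and 4 of these held a match, as did 12.5% of 27305 genes with a window. Those 4 were HES4, HES5, HEY2 and HEYL. No match was found in HES2, HES6, HES7, CDKN1A or NRARP. Among these, NRARP was lower in PC3CR by 2-fold or more, with a log2 difference of -1.37, and its window is not shown. The remaining targets, MYC, SOX9 and CCND1, were not searched. A match is a description of the letters and not evidence of binding.

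Of the 10 Notch genes, 4 were lower by 2-fold or more in PC3CR than in PC3, 1 was higher by 2-fold or more and 5 lay within 2-fold. Among all genes 6.72% were lower by 2-fold or more and 9.84% higher by 2-fold or more. The lower genes were HES1, HEY1, NOTCH2 and JAG1, and the higher gene was NOTCH3. The median difference of the 10 genes was -0.31, against -0.04 over all genes. The arrays measured RNA of whole cultures, so that fewer cells with a transcript and less transcript per cell cannot be told apart.

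**Figure D1:**
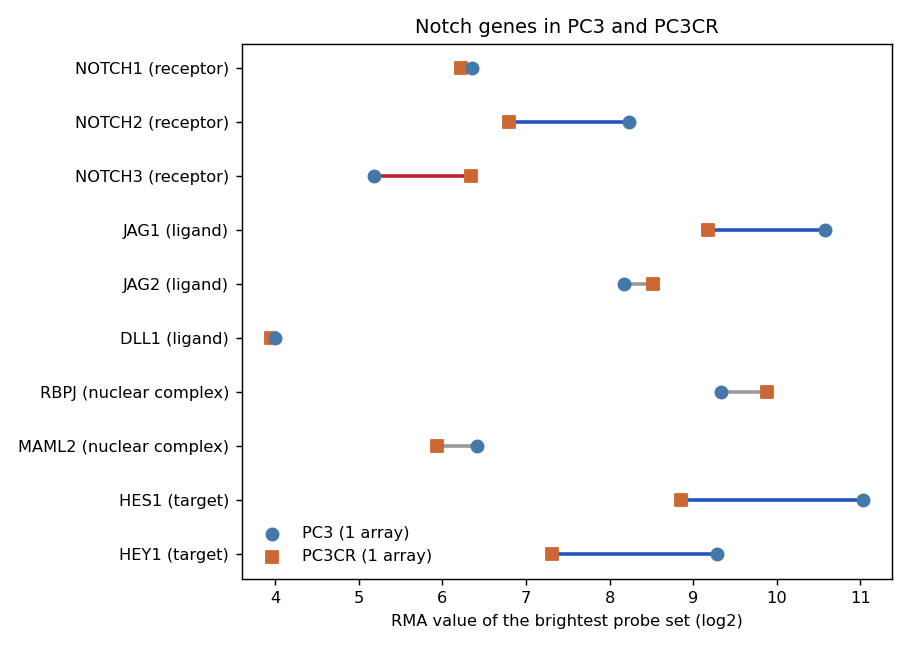
RMA values (log2, horizontal axis) of the brightest probe set of each Notch gene in PC3 (blue circles) and PC3CR (orange squares), with 1 array per cell line. Lines are blue where PC3CR was lower by 2-fold or more, red where it was higher by 2-fold or more and grey otherwise, and HES1 has the longest line, from 11.03 in PC3 to 8.85 in PC3CR.

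The target genes showed the largest differences among the 10. HES1, a basic helix-loop-helix repressor and the classical Notch target, gave 11.03 in PC3 and 8.85 in PC3CR, a log2 difference of -2.18 or 4.53-fold lower. Of the 19775 genes, 342 had a more negative difference than HES1. A second HES1 probe set gave 10.30 in PC3 and 7.45 in PC3CR, a log2 difference of -2.86. The third was at 2.42 and 2.61, under the lower quartile of all genes on each array (4.22 and 4.10), and differed by 0.19 in the other direction. HES1 was therefore lower on both of its bright probe sets, and its direction turned when the third probe set alone represented the gene. HEY1, a repressor of the related HEY family, gave 9.28 in PC3 and 7.32 in PC3CR, a log2 difference of -1.97 or 3.91-fold lower. The other HEY1 probe set was at 8.65 and 6.91 and gave a log2 difference of -1.74. Both HEY1 probe sets were thus past 2-fold, and 410 genes had a more negative difference.

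The ligands did not move together. JAG1, the Jagged ligand that activates Notch receptors on adjacent cells, gave 10.58 in PC3 and 9.18 in PC3CR, a log2 difference of -1.40 or 2.65-fold lower, and 742 genes had a more negative difference. It had 6 probe sets, and all 6 were lower in PC3CR. The next 3 in brightness gave log2 differences of -1.59, -1.48 and -1.70. The faintest, at 4.59 and 4.06 in PC3, gave -0.54 and -0.16. JAG2, the second Jagged ligand, gave 8.17 in PC3 and 8.52 in PC3CR, a log2 difference of 0.35, with its other probe set at 0.20. DLL1, a Delta-like ligand, was at 4.00 and 3.95, under the lower quartile of all genes on each array. Its log2 difference of -0.05 turned to 0.03 after loess centring and to 0.01 after quantile normalization, and its second probe set went from 3.21 to 4.51. No direction can be given for DLL1 from these values.

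The receptors differed from each other in direction. NOTCH2 gave 8.23 in PC3 and 6.80 in PC3CR, a log2 difference of -1.43 or 2.69-fold lower. The second NOTCH2 probe set, at 7.40 and 5.96, gave -1.44, the third -0.76 and the faintest 0.09. The mean of its 4 probe sets differed by -0.88, which is within 2-fold. NOTCH2 has close paralogs, the NOTCH2NL genes, whose transcripts its probe sets may also bind. A probe set annotated to NOTCH2NLA alone gave 9.09 in PC3 and 8.82 in PC3CR, and one annotated to NOTCH2 together with its paralogs was at 8.51 and 7.84, log2 differences of -0.27 and -0.67. The part of the paralogs in the NOTCH2 value was not tested, and these probe sets were looked up after the NOTCH2 values were seen. NOTCH3, the receptor known for its role in vascular smooth muscle, gave 5.18 in PC3 and 6.35 in PC3CR, a log2 difference of 1.17 or 2.25-fold higher. Its other probe set was at 5.13 and 5.28, a log2 difference of 0.15, and the mean of both was 0.66, so that NOTCH3 passed 2-fold on 1 of 2 probe sets. NOTCH1 gave 6.36 in PC3 and 6.22 in PC3CR, a log2 difference of -0.14, with -0.51 on its second probe set.

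The nuclear factors lay within 2-fold. RBPJ, which binds DNA and holds target genes silent until the receptor fragment arrives, gave 9.34 in PC3 and 9.89 in PC3CR, a log2 difference of 0.55. Its second probe set gave 0.51 and its faintest, at 4.61 and 4.64, gave 0.03. MAML2, a Mastermind coactivator of the complex, was at 6.41 and 5.93, a log2 difference of -0.48, with -0.18 on a second probe set at 3.01 in PC3. RBPJ was thus somewhat higher and MAML2 somewhat lower, neither by 2-fold.

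Over the 28 probe sets of the 10 genes, 10 were lower by 2-fold or more, 2 higher by 2-fold or more and 16 within 2-fold, while 5.89% of all probe sets with 1 symbol were lower and 8.94% higher by that much. All 10 lower probe sets were among the 19 with a value at or above the probe set median on either array. Of the 9 below it on both arrays, 8 were within 2-fold and 1, the second of DLL1, was higher. This split used the same 2 values as the difference, and a probe set faint on both arrays has little room to fall. It is therefore a description only. Probe sets of a gene share the RNA of the same 2 arrays and are not replicates.

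**Figure D2:**
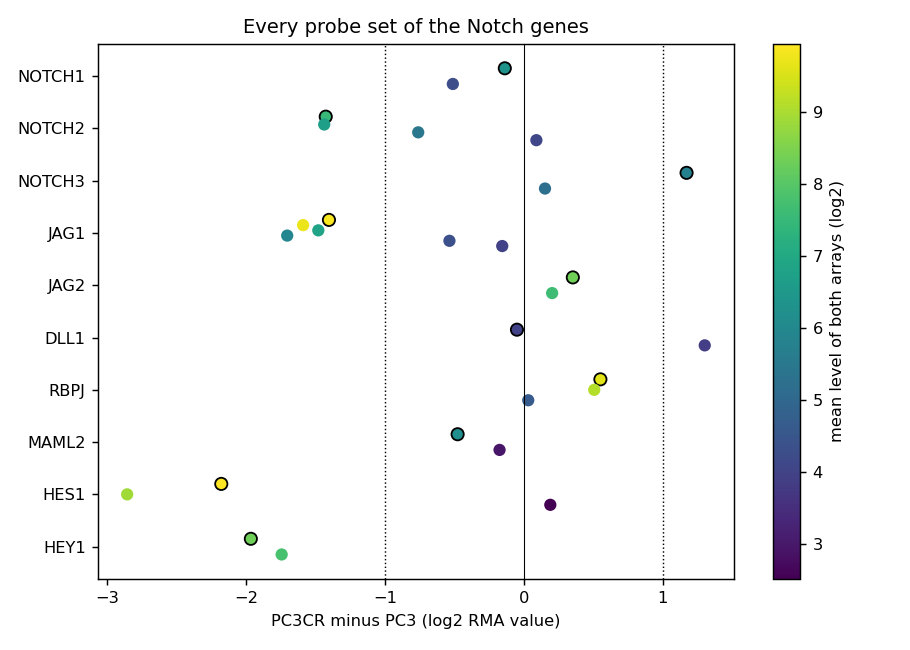
Differences between PC3CR and PC3 on the horizontal axis (log2 RMA scale) for each of the 28 probe sets of the 10 Notch genes, coloured by the mean level of both arrays (log2), with the brightest probe set of a gene ringed in black. Dotted lines mark 2-fold, and the points left of -1 belong to NOTCH2, JAG1, HES1 and HEY1.

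Other genes of the pathway were described by lists ordered along the signal. Of 71 measured genes in 7 lists, 9 were higher by 2-fold or more in PC3CR, 7 lower by 2-fold or more and 55 within 2-fold, with a median difference of 0.12. The shares of all genes past 2-fold given above are the background for these counts.

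The other target genes were the list with the most genes past 2-fold downward. Of 12 measured, 4 were lower by 2-fold or more, 1 was higher by 2-fold or more and 7 were within 2-fold, and the list median stood at -0.25. SOX9, a transcription factor of progenitor cells, gave 9.37 in PC3 and 6.88 in PC3CR, a log2 difference of -2.49. Its second probe set gave -0.50, and the mean of both was -1.49. HES4, a further HES repressor with 1 probe set, was at 10.66 and 8.59, a log2 difference of -2.06. MYC, the growth-promoting transcription factor, was at 12.63 and 10.88, a log2 difference of -1.75 on its only probe set. NRARP, a feedback inhibitor that Notch itself induces, was at 8.70 and 7.33, a log2 difference of -1.37, also on 1 probe set. HEY2 was the gene past 2-fold upward, at 4.30 and 5.79, a log2 difference of 1.49, whereas its second probe set gave -0.16. NRARP and HEY2 complete these counts and were named after their values were seen. Within 2-fold lay HES6 at 0.53, CDKN1A, a cell cycle inhibitor, at 0.71, CCND1, which encodes cyclin D1, at -0.47, HEYL at -0.33, HES2 at -0.17, HES7 at -0.06 and HES5 at 0.07. The lowest of the 3 HES2 probe sets gave -1.40, past 2-fold, and the second HEYL probe set gave 0.38. HES5 was at 3.28 in PC3 and 3.35 in PC3CR, under the lower quartile of all genes. SOX9, MYC, CCND1 and CDKN1A are also controlled by other pathways. Whether each listed gene, HES6 among them, answers to Notch in these cells was not tested.

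Receptor cleavage genes lay mostly above 0. Of 8 measured, 7 were higher in PC3CR, 2 of them by at least 2-fold, none was lower by 2-fold or more, and the median was 0.55. Over all genes, 8929 of 19775 lay above 0. The list median was 0.39 with the median of each gene's probe sets and 0.78 without _x_at and _s_at probe sets. ADAM10, the metalloprotease that makes the first cut after ligand binding, gave 10.00 in PC3 and 11.20 in PC3CR, a log2 difference of 1.20. Its other probe sets gave 1.61 and 1.49, so that all 3 were past 2-fold. APH1B, a gamma-secretase subunit, was at 6.12 and 7.65, a log2 difference of 1.52, with 0.69 on its second probe set. The gamma-secretase subunits PSENEN and NCSTN differed by 0.86 and 0.75, within 2-fold, and the second probe set of NCSTN gave 0.10. PSEN2, a presenilin that forms the catalytic core of gamma-secretase, was the gene of the list below 0, with a log2 difference of -0.40 and 2 of its 3 probe sets below 0.

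Glycosyltransferases that modify the receptor were also mostly above 0. Of 9 measured, 8 were higher, beside 8929 of 19775 over all genes, and 1 was past 2-fold. The list median was 0.48, or 0.34 with the mean or median of each gene's probe sets and after quantile normalization. The gene past 2-fold was GXYLT1, a xylosyltransferase that acts on EGF repeats, at 6.16 in PC3 and 7.27 in PC3CR. Its log2 difference was 1.11, and 0.97 after quantile normalization. The Fringe gene LFNG, whose product tunes the receptor's choice of ligand, was at 5.28 and 5.37, a log2 difference of 0.09. Its second probe set gave -0.27, and the mean of both was -0.09. The other Fringe genes, MFNG and RFNG, were counted as higher at 0.05 and 0.04. The 3 probe sets of MFNG lay between -0.32 and 0.93.

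Of 14 genes of ligand and receptor trafficking, 1 was higher by 2-fold or more and 1 lower by 2-fold or more, with a median of 0.12, which was -0.15 when probe sets of a gene were averaged. NEURL1B, a ubiquitin ligase of the Neuralized family that promotes ligand uptake, gave 5.44 in PC3 and 8.19 in PC3CR, a log2 difference of 2.75 on its only probe set. ITCH, a ubiquitin ligase that targets Notch among other proteins, was at 9.66 and 7.98, a log2 difference of -1.69. Its 6 probe sets disagreed. Further probe sets gave -1.69 and -1.59, while 0.98, 0.71 and -0.32 were found on the rest. MIB1, the Mind bomb ligase that activates ligands, differed by 0.71, and its 4 probe sets by between 0.20 and 1.99.

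Nuclear cofactors went both ways. Among 10 coactivators and turnover genes 1 was higher by 2-fold or more and 1 lower by 2-fold or more, with a median of 0.25. KAT2A, a histone acetyltransferase, gave 7.14 in PC3 and 8.63 in PC3CR, a log2 difference of 1.49. MAML3, another Mastermind gene, was at 5.49 and 4.05, a log2 difference of -1.44, but its other probe sets gave -0.18 and 0.27. Among 12 corepressors 3 were higher by 2-fold or more and none was lower by 2-fold or more, with a median of 0.14. CTBP1, a corepressor that RBPJ complexes can recruit, was at 8.38 and 10.28, a log2 difference of 1.90, with 1.98 and 1.93 on the next 2 probe sets and 0.03 on the faintest. TLE4, a Groucho-type corepressor that HES proteins bind, was at 7.23 and 8.59, a log2 difference of 1.36, and its 5 probe sets all lay above 0, between 0.32 and 2.43. L3MBTL3, a chromatin reader that partners RBPJ, was at 4.73 and 5.75, a log2 difference of 1.02, or 0.98 after quantile normalization.

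The 6 other receptors and ligands had a median of 0.01, which was -0.13 with the mean and -0.14 with the median of each gene's probe sets and -0.04 after quantile normalization. DNER, an atypical Notch ligand of neurons, gave 5.11 in PC3 and 4.10 in PC3CR, a log2 difference of -1.01. Loess centring (-0.95) or quantile normalization (-0.99) brought it within 2-fold. The other 5 genes lay within 2-fold.

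**Figure D3:**
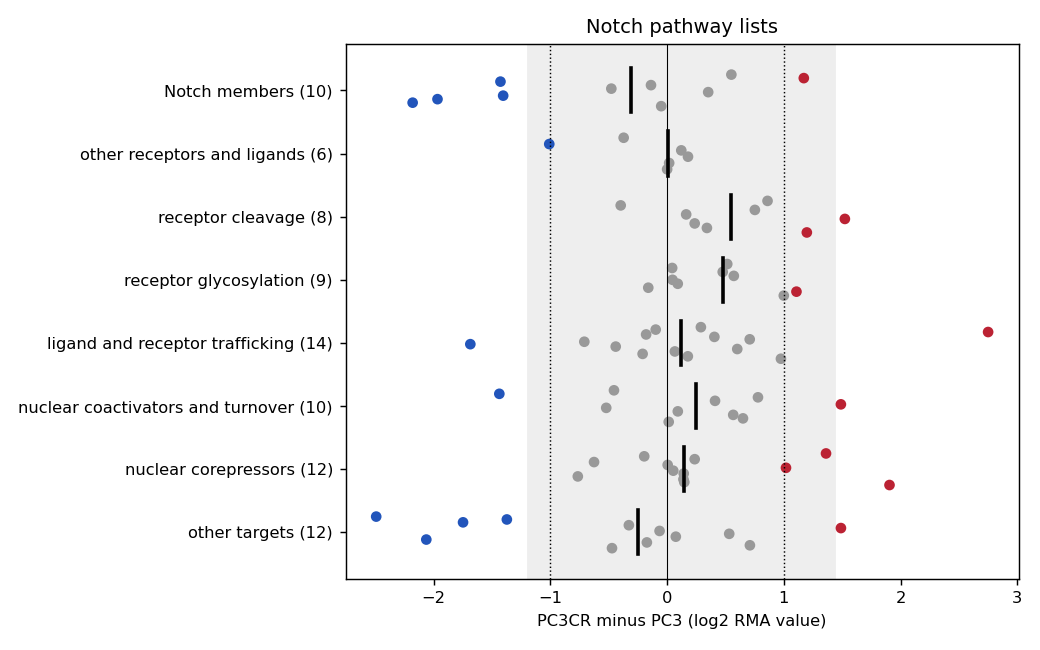
Differences between PC3CR and PC3 on the horizontal axis (log2 RMA scale) for 8 lists of Notch pathway genes, 1 point per gene, the number measured in brackets. Red points were higher by 2-fold or more and blue points lower by 2-fold or more in PC3CR, black bars are list medians, dotted lines mark 2-fold, and the grey band spans the 5th to 95th percentile of all genes (-1.19 to 1.44).

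The 10 Notch genes lie on 10 different chromosomes, and each was set beside its nearest measured genes, up to 10 on either side (14 in all for DLL1 and 20 for each of the others). The medians of these neighbours lay between -0.33 and 0.06. Over all genes, 10366 of 19775 lay below 0, 6.72% were lower by 2-fold or more and 9.84% higher by 2-fold or more. Around HES1, on chromosome 3, the 20 neighbours had a median of -0.13 and 1 of them was lower by 2-fold or more. Around JAG1, on chromosome 20, the median was -0.06 with 2 lower by that much, and around NOTCH2, on chromosome 1, it was 0.03 with 2. With 5 genes on either side the median around NOTCH2 was -0.28 and that around NOTCH1, -0.10 in the wider window, was 0.15. HEY1, on chromosome 8, stood among neighbours of which 6 of 20 were lower by 2-fold or more and 2 higher by 2-fold or more, with a median of -0.33. With 5 genes on either side, 1 of 10 neighbours of HEY1 was lower by that much and the median was -0.08, whereas with 20 on either side these were 13 of 40 and -0.47. Their part in the HEY1 value was not tested. Around NOTCH3, on chromosome 19, the median was -0.12 and 15 of 20 neighbours were below 0, while NOTCH3 itself was higher.

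**Figure D4:**
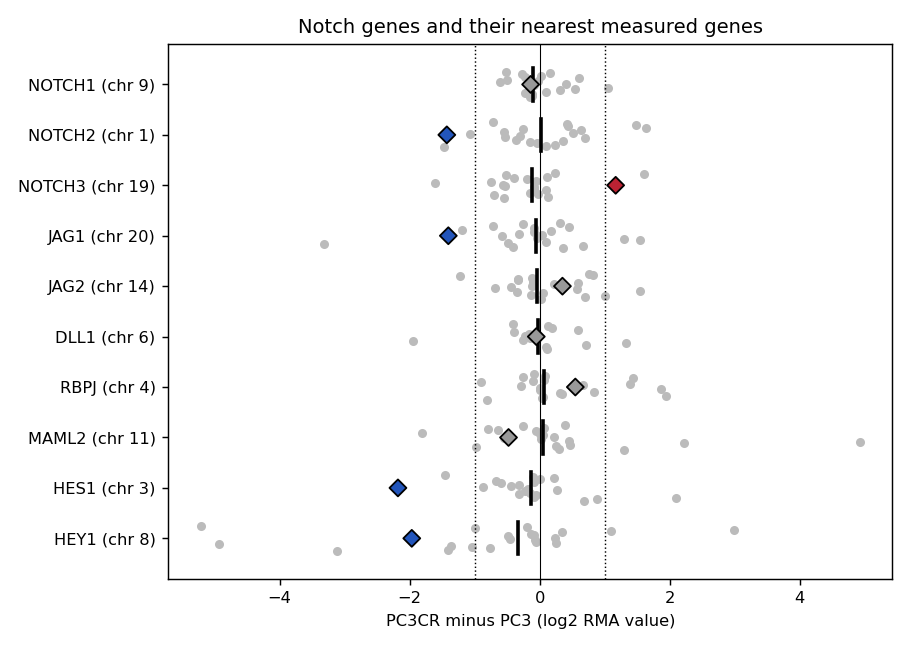
Differences between PC3CR and PC3 on the horizontal axis (log2 RMA scale) of the 10 Notch genes (diamonds, red if higher by 2-fold or more and blue if lower by 2-fold or more) and of their nearest measured genes, up to 10 on either side (grey points). Black bars are the medians of the neighbours, which lie between -0.33 and 0.06, and dotted lines mark 2-fold.

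The genes whose pair of values lay closest to that of a Notch gene were named for the largest increase and the largest decrease, over 2 arrays only. For NOTCH3 they were PRORP, a mitochondrial RNA-processing enzyme, and TTC9, at distances of 0.03 and 0.04 on the log2 scale. For HES1 they were TMEM126A, a mitochondrial protein, and ATP6V1C1, a subunit of the vacuolar proton pump, at 0.17 and 0.25.

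Marker genes were set beside these results. Both lines had high values of the epithelial keratins KRT8 (9.72 and 9.79) and KRT18 (11.69 and 12.36), whereas EPCAM, an epithelial adhesion protein, gave 11.07 in PC3 and 8.57 in PC3CR. Of 4 prostate luminal markers measured none passed 2-fold. FOLH1, which encodes a prostate membrane antigen, was at 3.86 and 4.05, under the lower quartile of all genes, KLK2 at 4.23 and 4.26, just above it, and KLK3, which encodes prostate-specific antigen, at 8.04 and 8.08. TMPRSS2, an androgen-regulated serine protease, was furthest from 0 in this list, at 6.23 and 5.78, a log2 difference of -0.45, and its 4 probe sets all lay below 0, between -0.99 and -0.03. Of 3 leukocyte, 3 fibroblast and 3 endothelial markers, 1 passed 2-fold, COL1A1, with a log2 difference of -2.12 on the brightest of its 5 probe sets. The highest of the 5 gave 0.03 and their mean was -0.79, within 2-fold. COL1A2 and DCN, the other fibroblast markers, differed by -0.61 and -0.54. The summed linear values of the fibroblast markers were 506 in PC3 and 158 in PC3CR, those of the leukocyte markers 86.9 and 86.4, and those of the endothelial markers 113 and 82.8. All 6 proliferation markers were higher in PC3CR, by between 0.84 and 2.70 on the log2 scale, with MKI67 at 2.70 and TOP2A at 2.10, and their summed linear value was 2570 in PC3 and 6683 in PC3CR. The part of these markers in the Notch values was not tested.

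The processing changed few of the calls on the 10 genes. JAG1 and HEY1 were lower by 2-fold or more under all 6 other choices of probe set and scaling, between -1.44 and -1.15 and between -2.03 and -1.74 respectively. HES1 and NOTCH2 each kept that call under 5 of the 6. NOTCH3 was higher by 2-fold or more under 4 of the 6. Not all of these choices could change a given gene. Every probe set of JAG1, NOTCH2 and NOTCH3 has the suffix _x_at or _s_at, so leaving such probe sets out returned the same value. HEY1 and NOTCH3 had 2 probe sets each, for which mean and median are the same. Median centring shifted all genes by the same small amount, for JAG1 from -1.404 to -1.401.

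**Figure D5:**
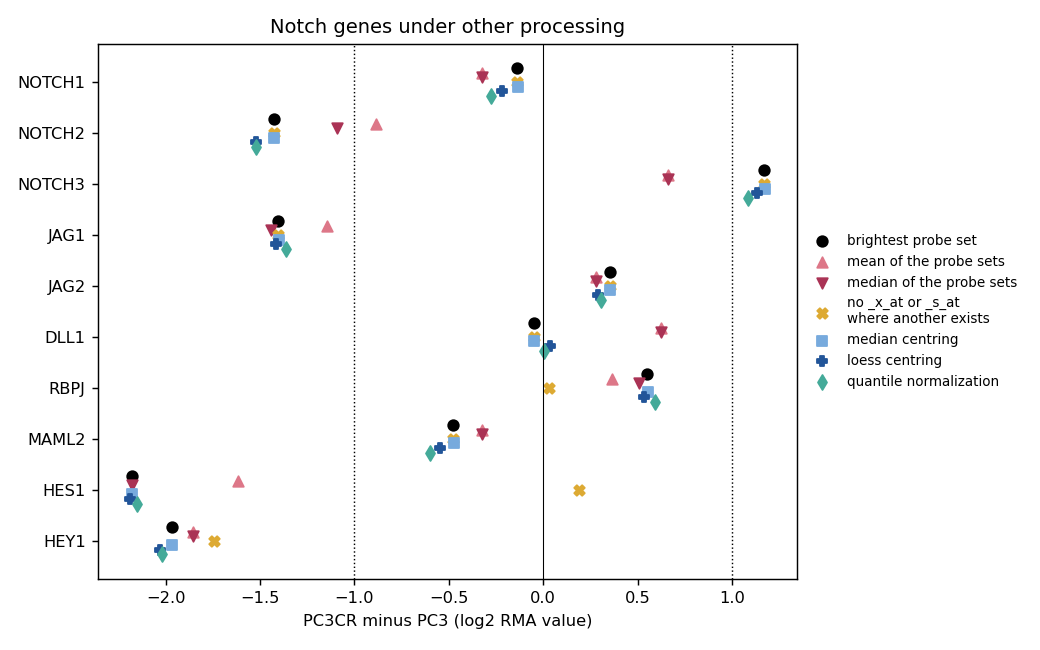
Differences between PC3CR and PC3 on the horizontal axis (log2 RMA scale) of the 10 Notch genes with the brightest probe set (black circles) and under 6 other choices of probe set or scaling. Dotted lines mark 2-fold, and HES1 is the gene past 2-fold that changes sign, at 0.19 when probe sets with the suffix _x_at or _s_at are left out.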

How the data were processed

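Total RNA of PC3 and PC3CR was isolated and profiled on 1 array each. For the hybridisation the methods describe labelled cDNA. For 54613 probe sets the authors deposited log2 values computed with RMA in Affymetrix software (Expression Console 1.4 and, in their processing notes, Transcriptome Analysis Console 3.1). Probe sets carry identifiers of the U133 Plus 2.0 design, although the methods describe the Human Gene 1.0 ST array. RMA equalises the arrays, so that a difference in total RNA per cell would not be seen. Of the probe sets, 41091 had 1 gene symbol in the platform annotation, 1801 had several and were left out, and 11721 had no name here. Symbols were updated through Entrez IDs to RefSeq on GRCh38.p14 for 41037 probe sets, which gave 19775 genes.

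Differences were counted at 2-fold, the threshold of the methods, with no p-value, since nothing estimates the spread between cultures. The Notch genes and lists were chosen with earlier results of these data known. From each other pathway list, up to 3 genes furthest from 0 past 2-fold were named or, where none was, the 1 furthest from 0, while markers were described by list, and some genes outside the rule were named to describe a list. Promoter windows came from RefSeq. Some listed genes were not analysed here. Alternatives were the mean or median of a gene's probe sets, no _x_at or _s_at probe set where another exists, median centring, loess centring (span 0.4), quantile normalization, fold thresholds of 1.5 and 3, floors on signal at the median and lower quartile of genes, and 5 or 20 neighbours on either side. The calculation was tested on simulated data. Calculations used Python 3.11.15 with pandas 2.3.3, numpy 2.4.6 and statsmodels 0.14.6, and plots matplotlib 3.10.9.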

Additional observations from a re-analysis of the deposited data

How the results depend on the processing

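With only 1 array per cell line no value has an error estimate, and probe sets near the floor of the array carry little information. Of the 10 Notch genes, 4 were at least 2-fold lower under median, loess and quantile scaling, at a threshold of 1.5-fold, with the median of probe sets and with either floor on signal, and 3 were with the mean of probe sets or without _x_at and _s_at probe sets. At a threshold of 3-fold, 2 were lower and 0 higher. The number at least 2-fold higher was 0 with the mean or the median of a gene's probe sets. The median difference of the 10 genes was -0.094 without _x_at and _s_at probe sets and -0.44 after quantile normalization. Without _x_at and _s_at probe sets HES1 differed by 0.19, ITCH by 0.98 and HEY2 by -0.16, each with the opposite sign to its brightest probe set, because another probe set then stood for the gene. The counts of the 71 other pathway genes past 2-fold stayed within 1.5 times their value under each choice of probe set and scaling.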

Other observations

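Helix-loop-helix genes that act with or against HES and HEY repressors were looked up after the Notch values were seen, and no test was made. Of 4 ID genes, whose products bind helix-loop-helix factors and keep them off DNA, ID2 gave 8.97 in PC3 and 6.60 in PC3CR, a log2 difference of -2.37, with -2.10 on its other probe set. ID3 went the other way, at 7.48 and 9.05, a log2 difference of 1.56 on its only probe set. ID1 and ID4 lay within 2-fold, at 0.68 and -0.06. The BHLHE repressors, relatives of the HES family, were both lower in PC3CR. BHLHE41 was at 8.42 and 5.26, a log2 difference of -3.16, although 1 of its 4 probe sets was higher by 0.09, and BHLHE40 was at 12.15 and 11.08, a log2 difference of -1.07, with -2.46 on its second probe set. Proneural factors are genes that HES repressors are known to silence. The 5 that were measured differed by between -0.21 and 0.41, and none passed 2-fold. All 5 were faint, below the median of all genes on each array (5.93 and 6.05). NEUROG2 and NEUROG3 were under the lower quartile, so that these values say little about whether the genes changed. Among the E proteins, the general partners of these factors, TCF12 was at 8.18 and 9.16, a log2 difference of 0.98, with 4 probe sets between 0.06 and 1.39. TCF3 differed by 0.54 on its brightest probe set, but 9 of its 14 probe sets were below 0 and their mean was -0.10. TCF4 was lower, at 4.24 and 3.81, a log2 difference of -0.43, with all 8 probe sets below 0.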
